A study of Arabidopsis thaliana with 12 samples.

Results

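The sucrose synthase family of Arabidopsis thaliana was described gene by gene in RNAseq data from seedlings of 3 genotypes. Its members were taken by name and locus identifier as SUS1 (AT5G20830), SUS2 (AT5G49190), SUS3 (AT4G02280), SUS4 (AT3G43190), SUS5 (AT5G37180) and SUS6 (AT1G73370), which are 6 of the 37885 genes counted. Poly(A) RNA was sequenced from whole seedlings, 7 d old, grown in continuous light on MS agar. There were 4 biological replicates per genotype, which gave 12 libraries. The genotypes were prt6, which carries the prt6-1 allele of PRT6, prt6 erfVII, which carries prt6-1 together with mutations in the 5 ERFVII genes HRE1, HRE2, RAP2.2, RAP2.3 and RAP2.12, and Col-0, the wild-type accession. By their labels both mutants share prt6-1 and differ in the ERFVII genes, and every mutant allele was present in all cells of the seedling.

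Sucrose synthase cleaves sucrose with UDP into fructose and UDP-glucose, in a reaction that can run in either direction. The UDP-glucose can enter cellulose and callose synthesis or, through UGPase and the kinases, glycolysis. Invertases, the alternative route, hydrolyse sucrose to glucose and fructose, and the sucrose synthase route costs less ATP per sucrose that enters glycolysis. In Arabidopsis SUS1 and SUS4 are known as members induced by low oxygen, SUS2 and SUS3 as members of developing seeds, and SUS5 and SUS6 as members of the phloem sieve elements, where callose is made. ERFVIIs are transcription factors that PRT6, an E3 ligase of the N-degron pathway, targets for degradation when oxygen is available.

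The members lie on 4 chromosomes of the TAIR10.1 assembly: SUS1 at chr5:7050217-7055398 on the minus strand, SUS2 at chr5:19943181-19947588 on the minus strand, SUS3 at chr4:994726-998991 on the plus strand, SUS4 at chr3:15179010-15184105 on the minus strand, SUS5 at chr5:14718141-14723139 on the plus strand, and SUS6 at chr1:27584364-27588978 on the minus strand. None of the 6 overlaps another annotated gene. The closest pair is SUS1 and SUS4, whose coding sequences were identical at 84.5% of aligned bases. SUS2 and SUS3 were identical at 72.9% of aligned bases, SUS5 and SUS6 at 69.9%, and every other pair at between 66.2% and 69.9%. No stretch of 75 bases, the length of a read, was shared by the transcripts of any pair of members. SUS1 and SUS4 differed at 2 to 22 bases, with a median of 11, in the 2275 windows of 75 coding bases that aligned without a gap. Their longest identical stretch is 38 bases, and the window of 75 coding bases around it is shown because it holds that stretch. It covers coding bases 847 to 921 of both genes, counted from the start codon, and the capitals mark the 4 bases that differ.
SUS1: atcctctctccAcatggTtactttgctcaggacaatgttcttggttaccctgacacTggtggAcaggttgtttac
SUS4: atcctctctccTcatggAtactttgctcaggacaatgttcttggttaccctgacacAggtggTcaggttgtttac

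The 250 bases upstream of the annotated gene start are shown for SUS4 and SUS1, the members with the largest differences between prt6 and Col-0, and for SUS3, which passed the test in neither of the comparisons with prt6. The hypoxia-responsive promoter element (HRPE), a sequence that ERFVIIs bind, was searched on both strands, as were GGTTT and GCCCC, the motifs of the anaerobic response element. GGTTT is also contained in the HRPE. Capitals mark GGTTT in the reading direction of the gene, or its reverse complement.
SUS4, chr3:15184106-15184355, minus strand: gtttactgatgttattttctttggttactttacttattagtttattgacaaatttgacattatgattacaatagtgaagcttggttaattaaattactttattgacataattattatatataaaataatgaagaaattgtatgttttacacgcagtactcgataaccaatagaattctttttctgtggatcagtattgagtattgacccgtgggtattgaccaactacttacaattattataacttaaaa
SUS1, chr5:7055399-7055648, minus strand: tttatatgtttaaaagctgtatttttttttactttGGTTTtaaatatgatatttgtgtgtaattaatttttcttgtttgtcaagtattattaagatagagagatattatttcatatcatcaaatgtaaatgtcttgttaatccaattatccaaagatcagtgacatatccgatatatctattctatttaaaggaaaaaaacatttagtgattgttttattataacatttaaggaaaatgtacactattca
SUS3, chr4:994476-994725, plus strand: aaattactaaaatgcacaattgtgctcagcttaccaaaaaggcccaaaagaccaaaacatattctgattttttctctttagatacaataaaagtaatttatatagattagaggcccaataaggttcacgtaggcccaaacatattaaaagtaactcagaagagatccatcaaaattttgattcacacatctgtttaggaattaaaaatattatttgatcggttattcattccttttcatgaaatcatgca

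No member held the HRPE within 250 or 1000 bases upstream, either exactly or with 1 mismatch. In this paragraph all genes are the 27442 protein-coding nuclear genes that were searched. Within 1000 bases the HRPE was found exactly in 0.0692% of them, and in 1.95% with 1 mismatch allowed. At shares this low its absence does not set the 6 members apart from other genes. GGTTT stood within 250 bases of 3 of the 6 members (SUS1, SUS2 and SUS6), against 54.7% of all genes, and within 1000 bases of all 6, against 94.9% of all genes. The windows of 250 bases upstream of SUS2 and of SUS6 each overlap 1 other annotated gene. GCCCC stood within 250 bases of 0 members, against 4.55% of all genes. Within 1000 bases it was found once upstream of SUS4, at 397 bases, and once upstream of SUS1, at 755 bases, against 16.9% of all genes. These matches describe the letters in the windows and say nothing of binding.

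The libraries held between 23156637 and 30582461 counts on genes, and replicates of 1 genotype differed by more than sampling noise in all 18 pairs, most in the pairs with prt6 replicate 4. The mutated genes were examined as a check of the labels. PRT6 transcripts stood at 64.1 ± 14.3 CPM in prt6-labelled libraries, 9.07 ± 1.28 CPM in prt6 erfVII and 62.3 ± 4.14 CPM in Col-0 (SD, n = 4 each), where CPM stands for TMM-normalized counts scaled by library size. PRT6 transcript was therefore not lower in prt6-labelled libraries than in Col-0, while it was 6.99-fold higher there than in prt6 erfVII (log2 fold change 2.81, adjusted p = 1.25e-06 in the edgeR fit described next), so in these libraries the mutants also differed in PRT6 transcript. The part of PRT6 in the differences between them was not tested. Gene-level counts cannot tell a full-length from a partial transcript, and every direction given for prt6 rests on the label. HRE1 had 0 counts in every prt6 erfVII library, HRE2 at most 2, and RAP2.3 reached 0.671 ± 0.235 CPM there, against 85.8 ± 8.95 CPM in Col-0 (SD, n = 4 each). RAP2.2 and RAP2.12 transcripts remained in prt6 erfVII, where RAP2.2 reached 58.5 ± 1.98 CPM and RAP2.12 reached 51.3 ± 2.45 CPM (SD, n = 4 each). Both were nevertheless lower there than in Col-0 and than in prt6-labelled libraries, with no overlap of libraries. In the edgeR fit of prt6 erfVII against Col-0 the log2 fold change was -0.84 for RAP2.2 (adjusted p = 2.38e-11). For RAP2.12 it was -0.90 (adjusted p = 1.66e-11).

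SUS4 and SUS1 rose in prt6-labelled libraries against both prt6 erfVII and Col-0, and both fell in prt6 erfVII against Col-0. SUS6 was higher in prt6-labelled libraries than in prt6 erfVII and lower in prt6 erfVII than in Col-0. SUS5 passed the test, by a narrow margin, only for prt6 against prt6 erfVII, SUS3 was slightly higher in prt6 erfVII than in Col-0, and SUS2 passed the test in no comparison. The test was edgeR's quasi-likelihood test on the counts of the 8 libraries of each comparison, with Benjamini-Hochberg adjustment over all genes tested, and an adjusted p under 0.05 is called higher or lower. The comparisons share libraries, 4 in each pair of comparisons, so their values are given side by side and not as separate evidence.

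Between prt6 and prt6 erfVII 4 of the 6 members were higher and 0 lower, with a median log2 fold change of 0.59 over the 6. Over all 20857 genes tested 31.3% were called (14.7% higher and 16.6% lower), with a median of 0.00. Between prt6 erfVII and Col-0 1 member was higher and 3 were lower, with a median of -0.38, where 37.2% of all 20747 genes tested were called (18.5% higher and 18.7% lower) and the median was -0.01. Between prt6 and Col-0 2 members were higher and 0 lower, with a median of 0.35, where 2.18% of all 20899 genes tested were called (1.09% higher and 1.09% lower) and the median was 0.00. Libraries of the genotypes did not overlap for 3 members higher between prt6 and prt6 erfVII (14.3% of all genes), 3 members lower between prt6 erfVII and Col-0 (17.5%) and 2 members higher between prt6 and Col-0 (3.63%). Without prt6 replicate 4 SUS4 and SUS1 were still the 2 members called higher against Col-0, while the count of all genes called there was 1231, against 455 with it. All 6 members passed the filter on low counts in every comparison.

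**Figure D1:**
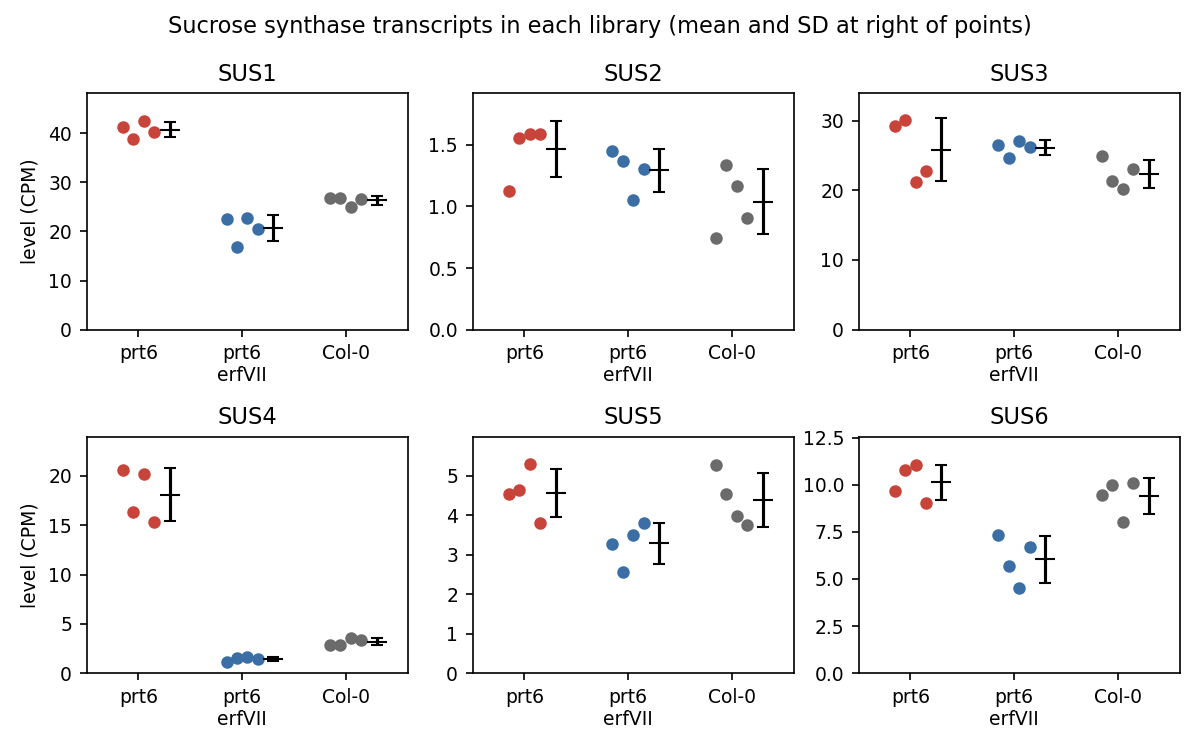
Level of each sucrose synthase transcript in CPM (vertical axis, from 0, its own scale in each panel) in the 4 libraries of prt6, prt6 erfVII and Col-0, with the mean and SD to the right of the points. SUS4 lay between 15.3 and 20.6 CPM in prt6, above 1.62 CPM or less in prt6 erfVII and 3.58 CPM or less in Col-0, whereas the SUS3 libraries of prt6 spread over those of both other genotypes.

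SUS4, the paralogue of SUS1 and one of the members induced by low oxygen, changed most. It stood at 20.6, 16.3, 20.1 and 15.3 CPM in prt6-labelled replicates 1 to 4, at 1.15, 1.54, 1.62 and 1.44 CPM in prt6 erfVII, and at 2.88, 2.88, 3.58 and 3.36 CPM in Col-0. Behind these levels were 409 to 570 counts per prt6-labelled library, 31 to 43 per prt6 erfVII library and 66 to 92 per Col-0 library. The genotypes did not overlap: every prt6-labelled library was above every Col-0 library, and every Col-0 library above every prt6 erfVII library. SUS4 was 12.5-fold higher in prt6-labelled libraries than in prt6 erfVII (log2 fold change 3.65, standard error 0.15, adjusted p = 5.69e-12), and it was the only member called and more than 2-fold higher there, as were 2.85% of all genes. Against Col-0 it was 5.70-fold higher (log2 fold change 2.51, standard error 0.13, adjusted p = 3.53e-11), where 0.311% of all genes were called and more than 2-fold higher. In prt6 erfVII it was also lower than in Col-0 (log2 fold change -1.15, standard error 0.20, adjusted p = 9.71e-05). Leaving out each library in turn moved these log2 fold changes over 3.55 to 3.72, 2.44 to 2.58 and -1.21 to -1.05 in the same order.

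SUS1, the other member induced by low oxygen, moved in the same direction by less. It stood at 41.3, 38.9, 42.4 and 40.2 CPM in prt6-labelled libraries, at 22.5, 16.9, 22.8 and 20.5 CPM in prt6 erfVII, and at 26.7, 26.8, 25.05 and 26.6 CPM in Col-0. As for SUS4, the 3 genotypes did not overlap and stood in the order prt6, Col-0, prt6 erfVII. The prt6-labelled libraries were 1.95-fold higher than prt6 erfVII (log2 fold change 0.97, standard error 0.09, adjusted p = 1.21e-07) and 1.55-fold higher than Col-0 (0.63, standard error 0.07, adjusted p = 4.43e-06). SUS1 was lower in prt6 erfVII than in Col-0 (log2 fold change -0.35, standard error 0.08, adjusted p = 0.00188). The count of SUS4 per count of SUS1, on the scale of CPM per kb of exon, was 0.480 to 0.632 in prt6-labelled libraries, 0.0646 to 0.115 in prt6 erfVII and 0.136 to 0.181 in Col-0, so the pair did not change in proportion.

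SUS6, a member of the phloem sieve elements, stood at 9.64, 10.8, 11.03 and 9.03 CPM in prt6-labelled libraries, at 7.35, 5.66, 4.51 and 6.68 CPM in prt6 erfVII, and at 9.46, 10.01, 8.02 and 10.09 CPM in Col-0. All prt6 erfVII libraries lay below all others, whereas prt6-labelled libraries and those of Col-0 overlapped. SUS6 was higher in prt6-labelled libraries than in prt6 erfVII (log2 fold change 0.72, standard error 0.14, adjusted p = 0.000552) and lower in prt6 erfVII than in Col-0 (-0.63, standard error 0.13, adjusted p = 0.000707). Between prt6-labelled libraries and Col-0 the log2 fold change was 0.11, with a 95% interval of -0.12 to 0.34 (adjusted p = 0.777). SUS6 lies 341 kb from HRE1, which is mutated in prt6 erfVII. Of the 135 other genes tested within 250 kb of SUS6, 37.0% were called between prt6 erfVII and Col-0, with 24 higher and 26 lower, against 37.2% of all genes. In the same window 37.0% were called between prt6 and prt6 erfVII, against 31.3% of all genes. Between prt6 and Col-0 the share was 4.48%, against 2.18% of all genes. The window does not reach HRE1, and the part of the position of SUS6 in its differences was not tested.

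SUS5, the closest relative of SUS6, stood at 4.53, 4.63, 5.30 and 3.81 CPM in prt6-labelled libraries, at 3.27, 2.57, 3.50 and 3.81 CPM in prt6 erfVII, and at 5.27, 4.53, 3.97 and 3.76 CPM in Col-0. The lowest prt6-labelled library and the highest of prt6 erfVII were at the same level, and libraries of Col-0 overlapped both mutants. The log2 fold change was 0.46 between prt6-labelled libraries and prt6 erfVII (standard error 0.16, adjusted p = 0.0395), and this call was lost in 6 of the 8 fits that left out 1 library, over which the value ran from 0.36 to 0.55 and the adjusted p from 0.0197 to 0.131. Between prt6 erfVII and Col-0 SUS5 did not pass the test (log2 fold change -0.41, 95% interval -0.75 to -0.06, adjusted p = 0.0590), although it did without Col-0 replicate 4 (-0.48, adjusted p = 0.0444). Between prt6-labelled libraries and Col-0 the log2 fold change was 0.07, with a 95% interval of -0.26 to 0.39.

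Phloem transcripts were examined beside SUS5 and SUS6. Of 9 markers of sieve elements and companion cells, 2 were higher and 0 lower in prt6-labelled libraries than in prt6 erfVII, against 14.7% and 16.6% of all genes, and 2 were lower and 0 higher in prt6 erfVII than in Col-0, against 18.7% and 18.5% of all genes. Both were structural proteins of the sieve element, SEOR1 and SEOa, and the other 7 markers were not called in any comparison. SEOR1 stood at 33.9 ± 2.50 CPM in prt6-labelled libraries, 24.1 ± 2.57 CPM in prt6 erfVII and 34.1 ± 2.67 CPM in Col-0 (SD, n = 4 each), and its log2 fold change was 0.48 for the first pair (adjusted p = 0.000271) and -0.50 for the second (adjusted p = 1.96e-05). Over all 9 markers, which were all detected, the summed level was 302 to 343 CPM in prt6-labelled libraries, 289 to 303 CPM in prt6 erfVII and 313 to 336 CPM in Col-0, and 0 markers differed between prt6 and Col-0. The part of phloem content in the differences of SUS5 and SUS6 was not tested, and in whole seedlings fewer cells of a type and less RNA per cell cannot be told apart.

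**Figure D2:**
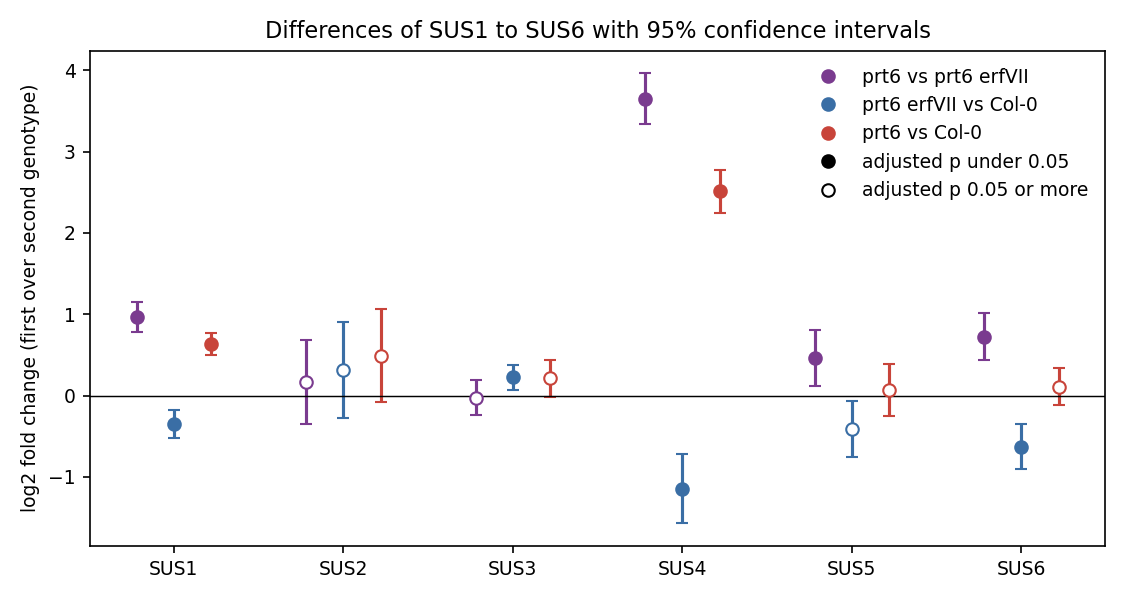
Log2 fold changes of SUS1 to SUS6 (vertical axis, first over second genotype) with their 95% confidence intervals in the 3 comparisons, filled where the adjusted p was under 0.05. SUS4 and SUS1 are above 0 for prt6 against prt6 erfVII and against Col-0, and SUS6 lies at 0.72 against prt6 erfVII and at 0.11 against Col-0.

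SUS3, a member of developing seeds, was among the most abundant members in seedlings. It stood at 29.2, 30.1, 21.2 and 22.8 CPM in prt6-labelled libraries, at 26.5, 24.6, 27.1 and 26.2 CPM in prt6 erfVII, and at 24.9, 21.4, 20.2 and 22.98 CPM in Col-0. Its prt6-labelled libraries fell on both sides of all those of prt6 erfVII, replicates 1 and 2 above and replicates 3 and 4 below, and the coefficient of variation was 17.3% in prt6, 4.17% in prt6 erfVII and 9.15% in Col-0. SUS3 was called higher in prt6 erfVII than in Col-0 (log2 fold change 0.22, standard error 0.07, adjusted p = 0.0200), although 1 library of each genotype overlapped. That call was lost without Col-0 replicate 2 (0.20, adjusted p = 0.0633), without Col-0 replicate 3 (0.18, adjusted p = 0.0876) and in a fit over all 12 libraries (adjusted p = 0.0815). Between prt6-labelled libraries and prt6 erfVII the log2 fold change was -0.03 with a 95% interval of -0.24 to 0.19, and between prt6-labelled libraries and Col-0 it was 0.21 with an interval of -0.01 to 0.43 (adjusted p = 0.439).

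SUS2, the other member of developing seeds, was close to the lower end of what could be measured, with 17 to 45 counts per library. It stood at 1.12, 1.56, 1.59 and 1.59 CPM in prt6-labelled libraries, at 1.45, 1.37, 1.05 and 1.30 CPM in prt6 erfVII, and at 0.741, 1.34, 1.17 and 0.910 CPM in Col-0, and the genotypes overlapped. Its intervals were the widest of the family. The log2 fold change was 0.16 between prt6-labelled libraries and prt6 erfVII (95% interval -0.35 to 0.68), 0.31 between prt6 erfVII and Col-0 (-0.28 to 0.90) and 0.49 between prt6-labelled libraries and Col-0 (-0.08 to 1.06). These data do not exclude differences within these intervals. Transcripts of 12 seed maturation genes varied between single libraries of all genotypes, with a summed level of 3.85 to 24.3 CPM in prt6-labelled libraries, 1.03 to 108 CPM in prt6 erfVII and 0.552 to 44.1 CPM in Col-0. In each comparison 4 of them were tested, not the same 4 throughout, and 0 were called.

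Levels of different members can be compared only per length, and CPM per kb of annotated exon was used. In prt6-labelled libraries the order was SUS1 (10.9), SUS3 (8.22), SUS4 (6.14), SUS6 (2.89), SUS5 (1.49) and SUS2 (0.470 CPM per kb), with overlapping libraries between SUS3 and SUS4 and no overlap between other neighbours. In prt6 erfVII it was SUS3 (8.30), SUS1 (5.54), SUS6 (1.72), SUS5 (1.07), SUS4 (0.488) and SUS2 (0.414 CPM per kb), with an overlap between SUS4 and SUS2. In Col-0 SUS3 (7.11) and SUS1 (7.05) overlapped, and SUS6 (2.68), SUS5 (1.43), SUS4 (1.08) and SUS2 (0.333 CPM per kb) followed without overlap. SUS4 thus moved between the fifth place in Col-0 and prt6 erfVII and the third in prt6-labelled libraries, and the other members kept their order apart from SUS1 and SUS3. The order of SUS1 and SUS3 in Col-0 was turned when coding length replaced exon length.

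The summed level of the 6 members was 30.1 ± 1.84 CPM per kb in prt6-labelled libraries, 17.5 ± 1.21 CPM per kb in prt6 erfVII and 19.7 ± 1.01 CPM per kb in Col-0 (SD, n = 4 each). All prt6-labelled libraries (27.6 to 31.9) lay above all others, and prt6 erfVII (15.8 to 18.5) and Col-0 (18.3 to 20.7) overlapped. Of the difference of 12.6 CPM per kb between prt6-labelled libraries and prt6 erfVII, SUS4 made up 5.65, SUS1 5.37 and SUS6 1.16. Of the difference of 10.4 CPM per kb against Col-0, SUS4 made up 5.06, SUS1 3.86 and SUS3, which did not pass the test, 1.11. The share of SUS4 in the summed level was 20.3% ± 2.21 in prt6-labelled libraries, 2.80% ± 0.519 in prt6 erfVII and 5.50% ± 0.868 in Col-0, and that of SUS3 was 27.2% ± 3.89, 47.4% ± 1.71 and 36.1% ± 1.68 in the same genotypes (SD, n = 4 each). SUS1 made up 36.3% ± 2.40 of the sum in prt6-labelled libraries, 31.5% ± 2.23 of it in prt6 erfVII and 35.9% ± 0.933 of it in Col-0 (SD, n = 4 each).

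**Figure D3:**
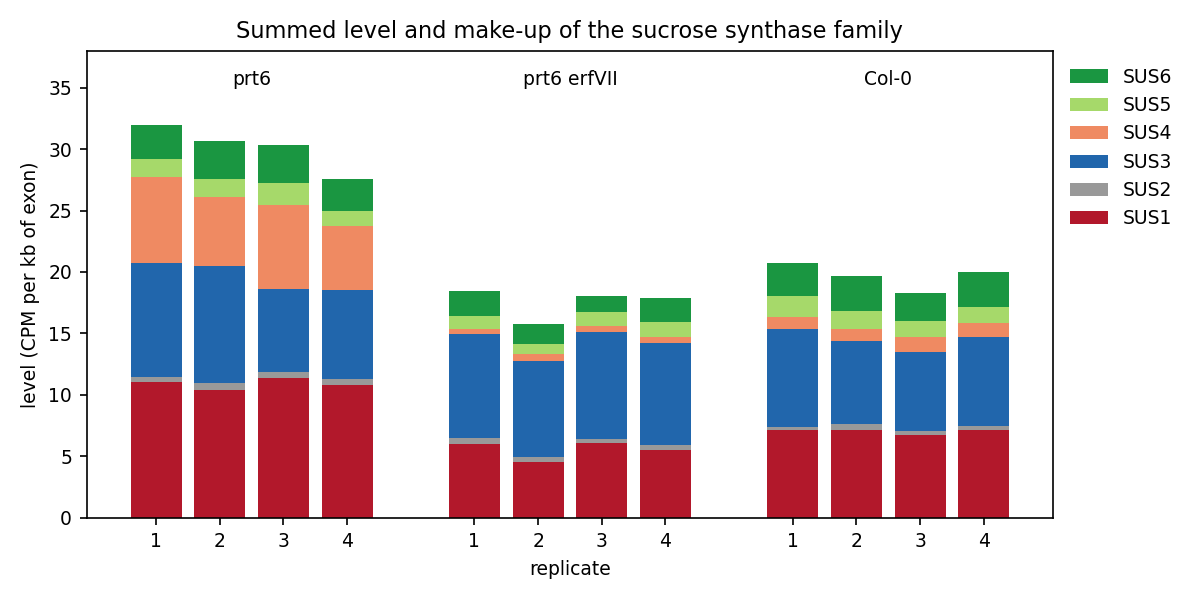
Summed level of the 6 sucrose synthase transcripts (bars, CPM per kb of exon) in each replicate of prt6, prt6 erfVII and Col-0, divided by member. The band of SUS4 is broad in prt6 and thin in prt6 erfVII and Col-0, and the sum reaches 27.6 to 31.9 in prt6, 15.8 to 18.5 in prt6 erfVII and 18.3 to 20.7 in Col-0.

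The genes whose pattern over the 12 libraries was most like that of each member were found by the root mean square difference of log2 CPM, each gene centred on its own mean, among 21143 other genes. For SUS4 they were ADH1 (AT1G77120), an alcohol dehydrogenase of ethanolic fermentation, at 0.34, HB1 (AT2G16060), a non-symbiotic haemoglobin, at 0.35, and AT4G33560 at 0.49, where the standard deviation of SUS4 itself was 1.57. For SUS1, with a standard deviation of 0.44, they were COBL5 at 0.12, AT4G17260, a lactate dehydrogenase, at 0.18, and AT4G31250 at 0.18. For SUS6, with a standard deviation of 0.40, they were MYB3R-4, a transcription factor of the cell cycle, at 0.11, DML1, a DNA demethylase, at 0.11, and AT2G43800 at 0.12. For SUS5 they were MOL1 at 0.11, AT3G20015 at 0.13 and GSTF4 at 0.13, for SUS3 AtCDC48B at 0.08, ASHH3 at 0.10 and AT5G18200 at 0.10, and for SUS2 AT5G22100 and AT3G13674 at 0.18 and AT2G19120 at 0.19. No gene was named among the closest of more than 1 member. The measure rewards genes with the same size of change and also genes that hardly vary. For SUS2, SUS3 and SUS5, whose own standard deviations were 0.18 to 0.32, a small value therefore says little. The values of AT4G17260 and AT4G31250 (0.18 each) are likewise not small beside the standard deviation of SUS1 (0.44).

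**Figure D4:**
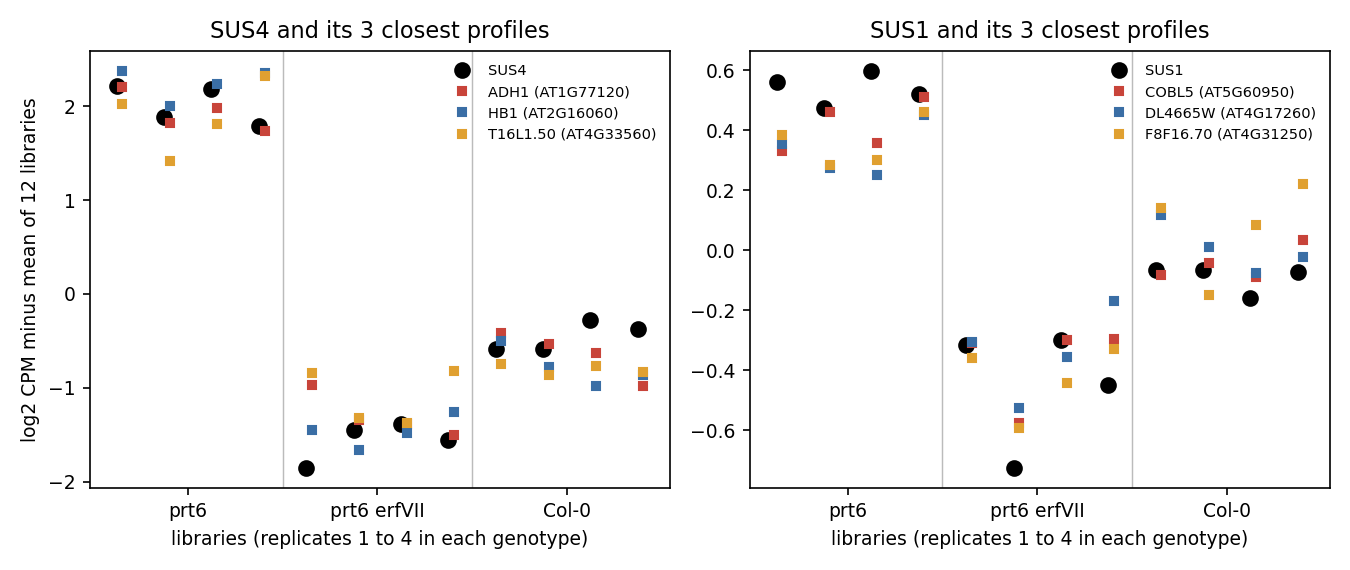
Log2 CPM minus the mean of the 12 libraries (vertical axis) for SUS4 and SUS1 (black circles) and the 3 genes closest to each (coloured squares), with replicates 1 to 4 of prt6, prt6 erfVII and Col-0 along the horizontal axis. In both panels the prt6 libraries lie highest and most prt6 erfVII libraries lowest, over a range several times wider for SUS4 than for SUS1.

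The other genes that make, cleave, carry or use sucrose were read from 6 lists with 60 genes. Their counts stand against 31.3% of all genes called for prt6 against prt6 erfVII (14.7% higher and 16.6% lower), 37.2% for prt6 erfVII against Col-0 (18.5% higher and 18.7% lower) and 2.18% for prt6 against Col-0 (1.09% each way). Invertases, which use the same substrate as sucrose synthase, had the largest called fold changes of these lists for prt6 against prt6 erfVII and for prt6 erfVII against Col-0. Of 5 acid invertases tested of 8 listed, 1 was higher and 3 were lower in prt6-labelled libraries than in prt6 erfVII, with a median log2 fold change of -0.59, and 3 were higher and 1 was lower in prt6 erfVII than in Col-0, with a median of 0.63. ATBFRUCT1 (AT3G13790), a cell wall invertase, stood at 81.5 ± 7.65 CPM in prt6-labelled libraries, 150 ± 13.1 CPM in prt6 erfVII and 75.9 ± 3.87 CPM in Col-0 (SD, n = 4 each). On the log2 scale it differed by -0.90 for prt6 against prt6 erfVII (adjusted p = 6.72e-08) and 0.99 for prt6 erfVII against Col-0 (adjusted p = 1.67e-11). The vacuolar invertase ATBETAFRUCT4 had a log2 fold change of -0.75 for prt6-labelled libraries against prt6 erfVII, and the acid invertase AT1G62660 had one of 0.63 for prt6 erfVII against Col-0. FRUCT5 (AT1G55120), a cell wall enzyme of the list that is known as a fructan exohydrolase, went the other way, at 0.75 for prt6 against prt6 erfVII and -0.75 for prt6 erfVII against Col-0. CWINV2 had 0 counts in all libraries.

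Of 8 alkaline and neutral invertases tested of 9 listed, 2 were higher and 3 were lower in prt6-labelled libraries than in prt6 erfVII (median log2 fold change -0.04), and 2 were higher and 2 lower in prt6 erfVII than in Col-0 (median 0.02). CINV1, a cytosolic invertase, stood at 127 ± 6.35 CPM in prt6-labelled libraries, 231 ± 14.1 CPM in prt6 erfVII and 126 ± 2.93 CPM in Col-0 (SD, n = 4 each). On the log2 scale it differed by -0.87 for prt6 against prt6 erfVII (adjusted p = 7.98e-09) and 0.88 for prt6 erfVII against Col-0 (adjusted p = 1.07e-11). A/N-InvC followed it, at -0.56 and 0.52 in the same comparisons, while A/N-InvD went the other way, at 0.35 and -0.53. Of both kinds of invertase 0 were called between prt6-labelled libraries and Col-0, where SUS4 and SUS1 were higher, with medians of 0.01 for the acid and -0.04 for the alkaline and neutral enzymes.

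Of 8 genes of sucrose synthesis, all tested, 3 were higher and 1 was lower in prt6-labelled libraries than in prt6 erfVII (median log2 fold change 0.21), 1 was higher and 4 were lower in prt6 erfVII than in Col-0 (median -0.25), and 0 were called between prt6 and Col-0 (median -0.06). The sucrose-phosphate synthase SPS2F had log2 fold changes of 0.60 for prt6 against prt6 erfVII and -0.68 for prt6 erfVII against Col-0, and SPS1F had 0.38 and -0.28. SPP2, a sucrose-phosphate phosphatase, had -0.31 for prt6 against prt6 erfVII, and ATSPS4F had -0.22 for prt6 erfVII against Col-0.

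Of the enzymes that take up the products of sucrose synthase (UGPases, fructokinases and hexokinases), 11 of 15 were tested. In prt6-labelled libraries 4 were higher and 2 lower than in prt6 erfVII (median log2 fold change 0.08), and in prt6 erfVII 2 were higher and 4 lower than in Col-0 (median -0.15). Between prt6 and Col-0 1 was higher and 0 lower (median 0.07). That gene was AT2G31390, a fructokinase, at 139 ± 15.4 CPM in prt6-labelled libraries, 78.6 ± 0.979 CPM in prt6 erfVII and 114 ± 5.40 CPM in Col-0 (SD, n = 4 each). On the log2 scale it differed by 0.81 for prt6 against prt6 erfVII (adjusted p = 9.15e-08), -0.54 for prt6 erfVII against Col-0 (adjusted p = 1.66e-08) and 0.29 for prt6 against Col-0 (adjusted p = 0.0328), the last of which was lost in 4 of the 8 fits without 1 library. It was the only gene of the lists called in all comparisons, and like SUS4 and SUS1 it was highest in prt6-labelled libraries. The hexokinases HXK1 and HXK2 had log2 fold changes of 0.47 and 0.38 for prt6 against prt6 erfVII, HXK1 had -0.45 and the hexokinase-like HKL1 0.46 for prt6 erfVII against Col-0. AT2G31390, HXK1, ATSPS4F and SPP2 overlap genes on the opposite strand, and the strand setting of the counting is not stated. Their counts are therefore less certain than those of the sucrose synthases, although the gene that overlaps SPP2 had 0 counts in every library. Such an overlap also occurs for PRT6, HRE1, CWINV2, CESA1, EXPA7, EXPA18, CASP1 and CASP5, which are named elsewhere here.

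Of 5 sucrose transporters tested of 9 listed, 1 was higher and 1 lower in prt6-labelled libraries than in prt6 erfVII (median log2 fold change -0.06), 2 were higher and 1 was lower in prt6 erfVII than in Col-0 (median 0.01), and 1 was higher and 0 were lower in prt6 than in Col-0 (median 0.04). SUC1 was higher in prt6-labelled libraries than in Col-0 by 0.34 on the log2 scale (adjusted p = 0.00337) and in prt6 erfVII than in Col-0 by 0.46 (adjusted p = 6.07e-07), so both mutants were above Col-0. SUT4 had 0.49 and SUC5 -0.63 for prt6 against prt6 erfVII, and -0.28 and 0.65 for prt6 erfVII against Col-0. The SUT4 call for prt6 erfVII against Col-0 (adjusted p = 0.0475) was lost with DESeq2, with RLE size factors, without the filter on low counts, in a fit over all 12 libraries and in 6 of the 8 fits without 1 library, with an adjusted p of up to 0.153. SUC9 had 0 counts in all libraries. Of 11 users of UDP-glucose, the cellulose synthases and the callose synthase CALS7, 10 were tested, and 2 were higher and 0 lower in prt6-labelled libraries than in prt6 erfVII (CESA5 at 0.27 and CESA2 at 0.21, median 0.10), 1 was higher and 1 lower in prt6 erfVII than in Col-0 (CESA1 at 0.17 and CESA5 at -0.21, median -0.06), and 0 were called between prt6 and Col-0 (median 0.08). Leaving out 1 library lost the call of CESA2 in 3 of 8 fits (adjusted p up to 0.0686), and those of CESA1 and of CESA5 for prt6 erfVII against Col-0 in 1 fit each.

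**Figure D5:**
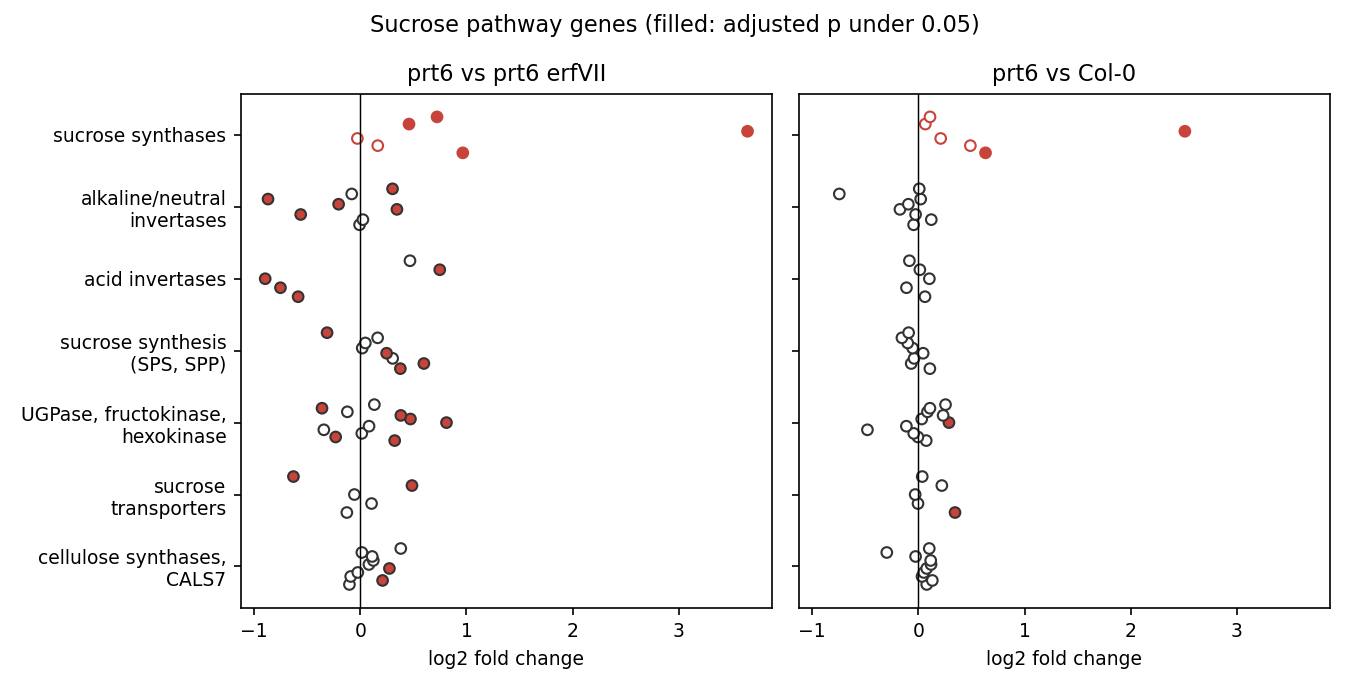
Log2 fold changes (horizontal axes) of the tested genes of the sucrose synthases and of the 6 lists, 1 point per gene, for prt6 against prt6 erfVII on the left and prt6 against Col-0 on the right, filled where the adjusted p was under 0.05. SUS4 stands alone at 3.65 and 2.51, the invertases reach -0.90 on the left, and on the right AT2G31390 and SUC1 are the filled points outside the sucrose synthases.

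Root and leaf transcripts gave the tissue context of these whole seedlings. Of 10 root hair and endodermis markers, 4 were higher and 1 was lower in prt6-labelled libraries than in prt6 erfVII, 2 were higher and 4 were lower in prt6 erfVII than in Col-0, and 0 were called between prt6 and Col-0. Of all genes 14.7% were higher and 16.6% lower in the first pair, and 18.5% and 18.7% in the second. The summed levels of the root markers were 84.7 to 105 CPM in prt6-labelled libraries, 56.1 to 69.1 CPM in prt6 erfVII and 71.1 to 94.7 CPM in Col-0. The list holds markers of both tissues, and all 4 of root hairs (PRP3, EXPA18, EXPA7 and SHV2) were higher in prt6-labelled libraries than in prt6 erfVII and lower in prt6 erfVII than in Col-0, with no overlap of libraries. PRP3, a cell wall protein, was at 1.84 and EXPA18, an expansin, at 1.23 on the log2 scale for prt6 against prt6 erfVII, and at -1.65 and -0.94 for prt6 erfVII against Col-0. Of the endodermis markers, CASP5 was at -1.78 and 1.42 in the same comparisons, with 95% intervals of -2.92 to -0.64 and 0.66 to 2.18. CASP5 was close to the lower end of what could be measured, with 0 to 55 counts per library. MYB36 was called for prt6 erfVII against Col-0, at 0.58, and CASP1 to CASP4 were not called. EXPA7, SHV2, MYB36 and CASP1 to CASP4 were named after their values were seen. Of 6 green leaf markers 0 were higher and 2 lower in prt6-labelled libraries than in prt6 erfVII, 1 was higher and 1 lower in prt6 erfVII than in Col-0, and 0 were called between prt6 and Col-0. The summed levels of the leaf markers were 29246 to 33791, 31241 to 34705 and 32230 to 33556 CPM in prt6, prt6 erfVII and Col-0. The part of root or leaf content in the differences of the sucrose synthases was not tested.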

How the data were processed

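RNAseq libraries of 12 seedling samples were analysed. The authors used skewer for trimming and HISAT2 2.1.0 for alignment to TAIR10, retained reads that mapped uniquely and correctly, and deposited raw counts per gene from featureCounts 1.6.0, with no normalization. Reads of identical copies are lost by this, and the strand setting is not given in the sources used here. Coordinates and sequences came from RefSeq TAIR10.1, in which 37883 of 37885 identifiers had a gene model. The 8 libraries of a comparison were fitted together in edgeR 4.0.16 (TMM, filterByExpr, robust quasi-likelihood test, Benjamini-Hochberg adjustment) in R 4.3.3, and fits were tested on simulated data. Alternatives were DESeq2 1.42.0, RLE size factors, no filter, a fit over 12 libraries, a replicate block, coding length and each library left out. Members and lists were chosen with earlier results of these data known. Named were the members, the mutated genes, up to 3 called genes per list and comparison with the largest change, and the 3 closest patterns per member. RefSeq proteins were not used here. Libraries held 23156637 to 30582461 counts.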

Additional observations from a re-analysis of the deposited data

Results flagged for a closer look

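The level of each member was compared among the 4 replicates of each genotype, and so was the summed level of the family. In Col-0, SUS1 stood at 25.05 CPM in replicate 3 and at 26.6 to 26.8 CPM in the other replicates, and the gap took up 0.920 of the range of the group. In prt6-labelled libraries, SUS2 stood at 1.12 CPM in replicate 1 and at 1.56 to 1.59 CPM in the others, and the gap took up 0.929 of the range. Chance alone sets apart about 5% of groups of this size, and 21 groups were examined. Neither library changed a call of these genes when it was left out.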

How the results depend on the processing

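SUS1, SUS2, SUS4 and SUS6 kept their direction and their side of the threshold under all 13 alternatives in every comparison. SUS3 for prt6 against prt6 erfVII, not called, ran from -0.11 to 0.06 when a library was left out, with 0.056 without prt6 replicate 3 and 0.029 without prt6 replicate 4. For prt6 erfVII against Col-0 SUS3 ran from 0.18 to 0.28, and its call was lost in a fit over all 12 libraries (0.22, adjusted p = 0.0815), in which 0 members were higher, as without Col-0 replicate 2 or 3. SUS5 ran from 0.36 to 0.55 for prt6 against prt6 erfVII, from -0.49 to -0.31 for prt6 erfVII against Col-0 and from -0.02 to 0.16 for prt6 against Col-0 (-0.0021 without Col-0 replicate 4 and -0.021 without prt6 replicate 3). The cause of these changes was not tested. Correlations of deviations between libraries with the same replicate number ran from -0.08 to 0.16, and they do not settle whether replicate numbers pair the samples. The main fits did not pair them. With a replicate block SUS5 for prt6 against prt6 erfVII was no longer called (0.46, adjusted p = 0.0639), no other member changed its call, and the counts of all genes called were 5721, 8406 and 540, against 6524, 7727 and 455 without it, for prt6 against prt6 erfVII, prt6 erfVII against Col-0 and prt6 against Col-0.

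With coding length in place of exon length the share of SUS1 was 41.1% in prt6, 35.6% in prt6 erfVII and 40.4% in Col-0, that of SUS3 was 45.2% in prt6 erfVII and 34.2% in Col-0, and that of SUS6 was 8.76% in prt6 and 12.4% in Col-0. In Col-0 SUS1 then ranked 1 and SUS3 ranked 2. Over all genes, leaving out prt6 replicate 4 raised the count called between prt6 and Col-0 to 1231, and DESeq2 gave 676. Depth limits SUS2, with 17 to 45 counts per library.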
